A study of Mus musculus with 9 samples.

Results

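The Wnt ligands, their Frizzled and Lgr receptors and the secreted proteins that tune them were followed in mouse embryonic fibroblasts (MEFs) of 3 genotypes. The members were every listed gene whose symbol starts with *Wnt*, *Fzd*, *Dkk*, *Sfrp*, *Rspo* or *Lgr* followed by a digit. This gave 44 of the 24341 listed genes: 19 Wnt ligands, 10 Frizzled receptors, 4 Dickkopf genes, 4 secreted frizzled-related genes, 4 R-spondins and 3 Lgr receptors. mRNA was sequenced in 3 samples each of WT, *Atm-/-* and *Sirt6-/-* MEFs, all labelled C57BL/6 and grown in DMEM with 10% FBS. *Atm* encodes a kinase of the DNA damage response and *Sirt6* a chromatin deacylase. According to the labels, MEFs also came from mice lacking *p53* or both *Atm* and *p53*, but no sample carries that label, and the study's methods list immortalized MEFs null for both *Atm* and *p53* and immortalized *Sirt6-/-* MEFs, received from different outside laboratories. The *Atm-/-* samples are therefore reported under their label. Line, laboratory of origin, loss of *p53* and genotype cannot be told apart in these samples. Nothing states that the samples of a genotype were separate cultures or embryos, so the p-values measure only the spread between these samples.

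Wnt proteins are lipid-modified secreted signals that bind Frizzled receptors. With the co-receptors Lrp5 and Lrp6 they stabilize beta-catenin, which acts in the nucleus with TCF and LEF factors, and with receptors such as Ror2 they act without beta-catenin on cell shape and polarity. Dickkopf proteins block Lrp5 and Lrp6, secreted frizzled-related proteins bind Wnt proteins outside the cell, and R-spondins bind Lgr receptors and protect Frizzled receptors from the ubiquitin ligases Rnf43 and Znrf3. In fibroblasts, Wnt signals are known for roles in growth, matrix production and signalling to neighbouring epithelium.

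The samples held 32187040 to 33837949 counted reads. Pairs of samples of one genotype differed by a chi-square per gene of 5.11 to 6.66, except for the pairs with WT replicate 2, which gave 14.4 and 15.6. For members tested with all samples, the value without WT replicate 2 is also given where a call or its size depended on it. *Sirt6* had 487, 402 and 472 reads in WT and 4, 5 and 7 in *Sirt6-/-*. *Atm* had 1536, 1617 and 1627 reads in WT and 3768, 3564 and 3443 in *Atm-/-*, which goes against a loss of transcript, although counts per gene do not show which exons were read. *Trp53* had 7108, 7102 and 6563 reads in WT, 9081, 9127 and 9218 in *Sirt6-/-* and 806, 946 and 928 in *Atm-/-*. Of 12 fibroblast markers, 11 reached on average 1 CPM (reads scaled to library size) in WT and in *Atm-/-* and 10 in *Sirt6-/-*, with *Lum* close to 0 in all samples. Their summed level ran from 29251 to 32290 CPM in WT, 9410 to 9643 in *Atm-/-* and 21024 to 21420 in *Sirt6-/-*. By the test given below, 10 of 11 were lower in *Atm-/-* and *Thy1* was higher, and in *Sirt6-/-* 7 were lower and 4 were higher (*Col1a2*, *Dcn*, *Pdgfrb*, *S100a4*, named after their values were seen). *Thy1* had 941, 590 and 785 reads in WT and 1, 33 and 12 in *Sirt6-/-*, with a mean below 1 CPM in the latter. Of all genes tested, 34.7% were higher and 33.6% lower in *Atm-/-*, and 39.2% and 37.4% in *Sirt6-/-*. The sum of 4 neural and glial markers ran from 7.19 to 8.34 CPM in WT, 254.9 to 269.9 in *Atm-/-* and 270.5 to 292.4 in *Sirt6-/-*, through *Nes*, *Map2* and *Tubb3*, while *Sox10* had at most 17 reads. The summed level of 8 epithelial markers was 24 to 28.3 CPM in WT, 46.7 to 51.7 in *Atm-/-* and 18.3 to 23.5 in *Sirt6-/-*, and that of 5 endothelial markers 3.11 to 5.15, 9.81 to 12.5 and 0.649 to 0.990. In WT and *Atm-/-* the endothelial sum was mostly *Kdr*, with 86 to 135 and 330 to 422 reads. *Pecam1*, *Cdh5*, *Tek* and *Emcn* had at most 13 reads in any sample. *Krt18* had 198 to 268 reads in WT and 891 to 1044 in *Atm-/-*. Of 7 epithelial markers tested, 2 were higher in *Atm-/-*, 2 lower in *Sirt6-/-*, and 5 did not pass in each comparison. These genes were named after their values were seen. For 4 haematopoietic markers it was 10.7 to 11.9, 3.46 to 3.66 and 3.53 to 4.20 CPM, and for 5 muscle markers, of which 4, 3 and 4 had no read, 0.596 to 1.52, 0.490 to 1.0 and 0.0900 to 0.371. The part of these shifts in the results below was not tested. In bulk RNA, fewer cells of a type and less RNA per cell cannot be told apart.

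The Wnt pathway genes changed in both mutant genotypes, in both directions and often by large factors. A gene entered a comparison when edgeR's filter on low counts kept it, and was called when its adjusted p (edgeR quasi-likelihood test, Benjamini-Hochberg over all genes tested) was under 0.05. In *Atm-/-* against WT, 33 of the 44 members were tested, 14 were higher, 14 lower and 5 did not pass. The called share was 84.8%, beside 68.4% of all 13283 genes tested (34.7% higher, 33.6% lower), so a call alone says little about a member. Calls with at least 2-fold change were made for 72.7% of the members tested, beside 22.5% of all genes, and with at least 8-fold change for 54.5%, beside 8.19%. Members that passed the filter only through a mutant in which they are read, such as *Dkk1*, had to differ from WT, so these shares describe the members that passed and not all 44. In *Sirt6-/-* against WT, 29 members were tested, 11 were higher, 15 lower and 3 did not pass. The called share was 89.7% beside 76.6% of 13206 genes (39.2% higher, 37.4% lower). With at least 2-fold change it was 75.9% beside 29.3%, and with at least 8-fold change 44.8% beside 10.8%. The median log2 fold change of the members tested was -0.12 in *Atm-/-* and -0.30 in *Sirt6-/-*, beside 0.02 over all genes in each comparison, so the large changes went both ways. The median in *Atm-/-* is the same with members that had no WT read set at their lower bound. In 28 of the 33 members tested the *Atm-/-* and WT samples did not overlap, beside 72.7% of all genes, and in 26 of 29 the *Sirt6-/-* and WT samples did not, beside 79%.

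Counting each member by its calls, 7 were higher than WT in both genotypes (*Dkk3*, *Fzd3*, *Lgr4*, *Rspo2*, *Wnt10a*, *Wnt10b*, *Wnt6*) and 12 were lower in both (*Fzd1*, *Fzd2*, *Fzd4*, *Fzd6*, *Rspo1*, *Rspo3*, *Sfrp1*, *Sfrp2*, *Wnt11*, *Wnt3*, *Wnt4*, *Wnt9a*). Both comparisons use the same WT samples, so these shared directions are not independent of each other. The call of *Fzd2* in *Atm-/-* rests on single samples, as given below. In *Atm-/-*, 34.7% of all genes tested were higher and 33.6% lower, and in *Sirt6-/-* 39.2% and 37.4%. The share called the same way in both was not computed, so these joint counts are only described. *Dkk3*, *Wnt10a* and *Wnt6* passed the filter only through the mutants and *Wnt3* only through WT, so their directions were fixed. *Wnt7a* was higher in *Atm-/-* and lower in *Sirt6-/-*, and *Wnt5a* was lower in *Atm-/-* and higher in *Sirt6-/-*. Of the 44 members, 34 were tested in at least 1 comparison and 10 in none (*Dkk4*, *Fzd10*, *Rspo4*, *Sfrp5*, *Wnt1*, *Wnt2*, *Wnt3a*, *Wnt8a*, *Wnt8b*, *Wnt9b*). Of these, *Sfrp5* and *Wnt9b* had no read in any of the 9 samples. *Wnt2*, a ligand known from lung and placenta, had 9, 8 and 17 reads in *Atm-/-* and at most 2 in any other sample. *Wnt1* had at most 8 reads and the others at most 2.

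**Figure D1:**
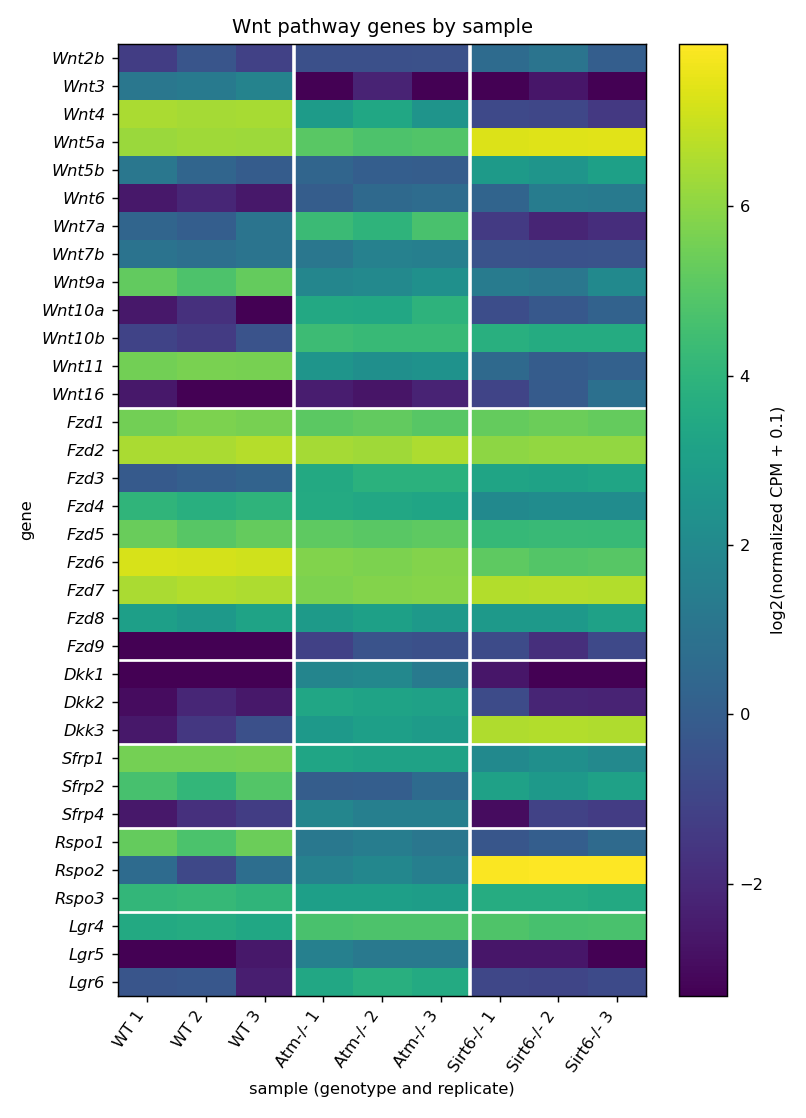
Level of the 34 members tested in at least 1 comparison (rows, grouped by family) in the 9 samples (columns), as log2 of normalized CPM plus 0.1 (reads scaled to library size with TMM normalization over the 9 samples). *Wnt4*, *Wnt11*, *Wnt9a*, *Rspo1* and *Sfrp1* are bright in WT and darker in both mutants, *Wnt10b* and *Fzd3* show the opposite, and *Rspo2* and *Dkk3* are brightest in *Sirt6-/-*.

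**Figure D2:**
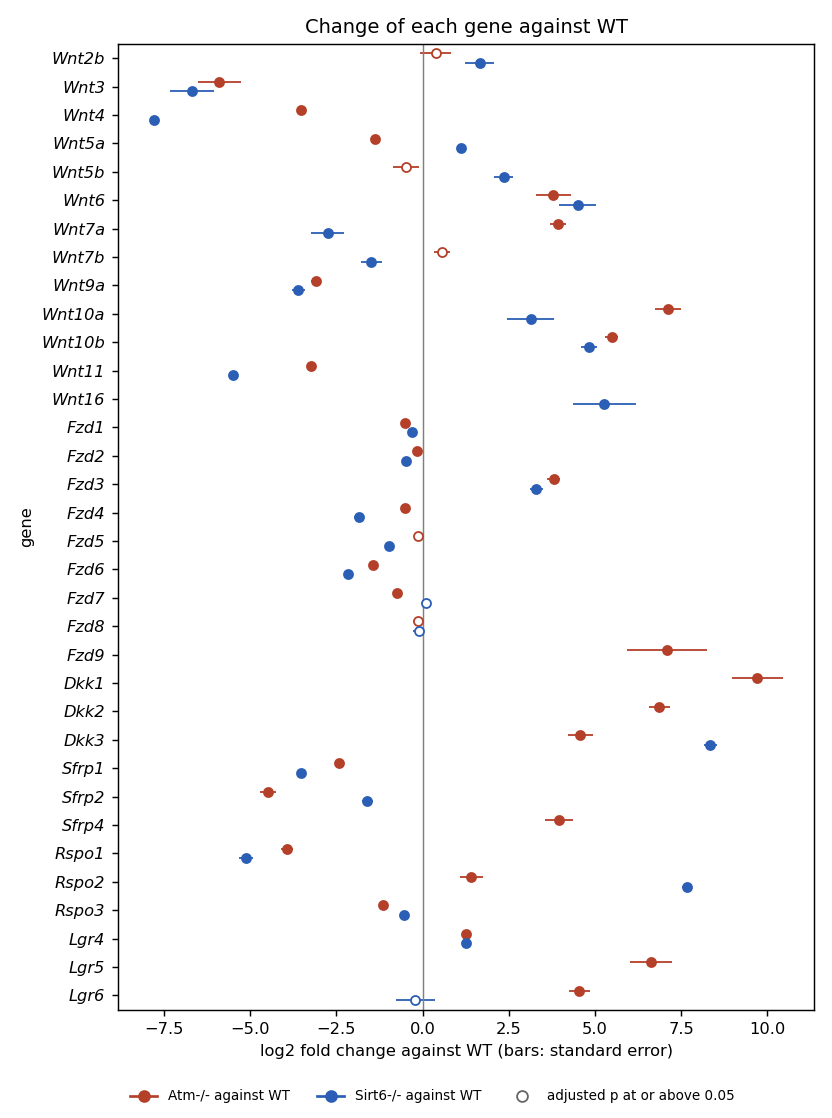
Log2 fold change against WT with its standard error for each member tested, in *Atm-/-* (red) and *Sirt6-/-* (blue), 3 samples per genotype. Filled points have an adjusted p under 0.05, a member not tested in a comparison has no point, and *Wnt5a* and *Wnt7a* have filled points on opposite sides of 0.

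Sequences of promoters are shown for 7 members that carry the main patterns: *Wnt4*, *Wnt9a*, *Wnt11* and *Rspo1*, abundant in WT and low in both mutants, *Wnt10b*, which did the reverse, *Wnt7a*, which moved in opposite directions, and *Dkk1*, read almost only in *Atm-/-*. Each is the RefSeq window (GRCm38.p6, the sequence of mm10) from 250 bases before to 50 bases after an annotated start, on the gene's own strand. Capitals mark the letters the TCF/LEF core, spelled CTTTGA, the GC box, spelled GGGCGG, and the TATA box, spelled TATAAA, searched on both strands, and a match on the other strand shows as the reverse complement. No letters were shared between matches of different motifs.
Wnt4: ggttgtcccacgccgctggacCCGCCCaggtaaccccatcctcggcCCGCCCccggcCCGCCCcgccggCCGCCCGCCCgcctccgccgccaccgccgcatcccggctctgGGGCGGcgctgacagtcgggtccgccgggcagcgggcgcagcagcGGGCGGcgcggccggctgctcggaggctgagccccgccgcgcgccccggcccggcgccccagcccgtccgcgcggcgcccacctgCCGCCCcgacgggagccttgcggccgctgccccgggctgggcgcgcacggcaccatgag
Wnt9a: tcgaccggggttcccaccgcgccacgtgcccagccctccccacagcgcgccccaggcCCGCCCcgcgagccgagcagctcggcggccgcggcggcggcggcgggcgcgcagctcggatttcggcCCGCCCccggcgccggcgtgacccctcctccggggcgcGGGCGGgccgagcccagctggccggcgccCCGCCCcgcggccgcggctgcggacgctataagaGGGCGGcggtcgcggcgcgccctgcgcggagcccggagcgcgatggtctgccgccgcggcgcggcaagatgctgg
Wnt11: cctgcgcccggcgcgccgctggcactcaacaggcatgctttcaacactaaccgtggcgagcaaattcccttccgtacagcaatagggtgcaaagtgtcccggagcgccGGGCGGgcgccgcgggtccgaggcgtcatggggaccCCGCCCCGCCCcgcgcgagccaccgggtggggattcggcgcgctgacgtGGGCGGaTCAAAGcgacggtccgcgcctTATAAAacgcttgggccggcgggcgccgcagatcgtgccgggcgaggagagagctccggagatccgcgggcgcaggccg
Rspo1: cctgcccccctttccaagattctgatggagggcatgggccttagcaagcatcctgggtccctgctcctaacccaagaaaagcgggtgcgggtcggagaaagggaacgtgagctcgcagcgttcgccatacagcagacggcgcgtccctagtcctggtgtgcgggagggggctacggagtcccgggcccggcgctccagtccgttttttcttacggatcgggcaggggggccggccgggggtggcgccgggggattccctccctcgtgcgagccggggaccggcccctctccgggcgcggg
Wnt10b: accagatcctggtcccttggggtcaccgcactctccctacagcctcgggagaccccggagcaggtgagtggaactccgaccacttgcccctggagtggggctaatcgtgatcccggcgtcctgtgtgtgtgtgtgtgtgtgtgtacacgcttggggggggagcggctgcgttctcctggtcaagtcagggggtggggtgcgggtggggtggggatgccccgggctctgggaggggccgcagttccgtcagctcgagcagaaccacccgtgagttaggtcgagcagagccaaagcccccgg
Wnt7a: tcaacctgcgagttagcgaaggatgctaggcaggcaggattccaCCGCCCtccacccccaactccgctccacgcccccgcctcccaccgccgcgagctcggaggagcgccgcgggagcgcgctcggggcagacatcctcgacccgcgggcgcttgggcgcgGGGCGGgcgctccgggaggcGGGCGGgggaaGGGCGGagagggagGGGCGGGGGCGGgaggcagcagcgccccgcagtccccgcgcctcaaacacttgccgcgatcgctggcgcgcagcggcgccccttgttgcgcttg
Dkk1: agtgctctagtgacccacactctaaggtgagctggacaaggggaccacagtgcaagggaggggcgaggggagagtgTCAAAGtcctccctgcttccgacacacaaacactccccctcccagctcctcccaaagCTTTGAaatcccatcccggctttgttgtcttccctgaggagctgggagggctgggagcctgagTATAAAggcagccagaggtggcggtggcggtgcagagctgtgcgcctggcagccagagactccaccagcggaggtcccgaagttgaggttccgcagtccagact
In these windows *Wnt4* (chr4:137277385-137277684, plus strand) held 8 GC boxes and 51 CpG dinucleotides, and *Wnt9a* (chr11:59306680-59306979, plus strand) 5 and 58. The upstream window of *Wnt11* (chr7:98834862-98835161, plus strand) held 4 GC boxes, 1 TCF/LEF core and 1 TATA box with 45 CpG. *Wnt7a* (chr6:91411304-91411603, minus strand) had 6 GC boxes and 42 CpG. *Rspo1* (chr4:124986180-124986479, plus strand) and *Wnt10b* (chr15:98778101-98778400, minus strand) held none of the motifs, with 29 and 18 CpG. *Dkk1*, a gene known as a target of beta-catenin, held 2 TCF/LEF cores, 1 TATA box and 9 CpG (chr19:30549447-30549746, minus strand). Windows were found for 29 of the 44 members, 32 windows in all. A GC box was present in 71.9% of them, beside 46.2% of the 21263 windows of protein-coding genes and 35.7% of all 32851 windows. The TCF/LEF core was present in 12.5%, beside 14.4% and 16.0%, and the TATA box in 12.5%, beside 12.6% and 13.6%. The median number of CpG was 26.5 per member window and 13 per window of protein-coding genes. These are matches of letters and not evidence of binding.

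Of the Wnt ligands with the highest levels in WT, *Wnt4*, *Wnt11* and *Wnt9a* fell in both mutants, and so did the scarcer *Wnt3*. *Wnt4*, a ligand of kidney and reproductive tract development, had 2874, 2631 and 2722 reads in WT, 245, 358 and 188 in *Atm-/-* and 15, 14 and 9 in *Sirt6-/-*. The 3 genotypes did not overlap. The log2 fold change against WT was -3.52 ± 0.141 (SE, n = 3 per genotype, adjusted p = 1.97e-11, edgeR) in *Atm-/-* and -7.80 ± 0.122 (adjusted p = 3.41e-16, edgeR) in *Sirt6-/-*. *Wnt11*, which acts mainly on cell movement, had 1485, 1565 and 1548 reads in WT, 195, 165 and 176 in *Atm-/-* and 44, 28 and 34 in *Sirt6-/-*. Its log2 fold change was -3.24 ± 0.0914 in *Atm-/-* (adjusted p = 4.2e-13, edgeR) and -5.49 ± 0.125 in *Sirt6-/-* (adjusted p = 1.8e-14, edgeR), again with no overlap. *Wnt9a*, a ligand of joint formation, had 1185, 867 and 1212 reads in WT, 120, 135 and 167 in *Atm-/-* and 81, 67 and 130 in *Sirt6-/-*. Both mutants lay far below WT, at log2 -3.09 ± 0.151 (adjusted p = 1.74e-10, edgeR) and -3.61 ± 0.185 (adjusted p = 1.75e-10, edgeR), while the mutants overlapped each other. *Wnt3*, a ligand of early embryo patterning, had 66, 71 and 101 reads in WT, 0, 4 and 0 in *Atm-/-* and 0, 2 and 0 in *Sirt6-/-*. It was called lower in both (adjusted p = 8.96e-07 and 1.9e-07, edgeR). *Wnt3* passed the filter only through WT, so it had to be lower and these calls are no added support. Over *Sirt6-/-* as a whole, 2 reads stood against 238 in WT, a ratio of 123 with a 95% counting interval of 33.8 to 1025. The fitted value in *Atm-/-* was log2 -5.90 ± 0.619, and -9.36 without *Atm-/-* replicate 2, which held all 4 reads. Without *Sirt6-/-* replicate 2, which held both reads of that genotype, the fitted log2 value went from -6.70 to -9.34. Fitted values of genes with so few reads depend on edgeR's prior count.

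*Wnt5a*, the main ligand of beta-catenin-independent signalling in mesenchyme, moved in opposite directions. It had 2417, 2456 and 2449 reads in WT, 1129, 953 and 994 in *Atm-/-* and 5186, 5377 and 5711 in *Sirt6-/-*. All *Atm-/-* samples were below and all *Sirt6-/-* samples above WT, with log2 fold changes of -1.39 ± 0.0702 (adjusted p = 2.56e-10, edgeR) and 1.10 ± 0.0488 (adjusted p = 3.27e-11, edgeR). The direct comparison of *Atm-/-* with *Sirt6-/-* gave -2.47 ± 0.0598 (adjusted p = 6.28e-19, edgeR). *Wnt7a*, a ligand of limb and nervous system development, was the reverse. It had 37, 29 and 60 reads in WT, 692, 547 and 866 in *Atm-/-* and 9, 4 and 6 in *Sirt6-/-*, so the genotypes were again separate. The log2 fold change was 3.93 ± 0.234 in *Atm-/-* (adjusted p = 1.68e-09, edgeR), -2.76 ± 0.48 in *Sirt6-/-* (adjusted p = 0.000108, edgeR) and 6.70 ± 0.26 between the mutants (adjusted p = 2.05e-15, edgeR).

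Several ligands that were scarce in WT were higher in one or both mutants. Of these, *Wnt10a* and *Wnt6* passed the filter only through the mutants. They had to be higher, so their calls are no added support. *Wnt10b*, which activates beta-catenin and restrains fat cell formation, had 12, 9 and 20 reads in WT, 716, 671 and 645 in *Atm-/-* and 435, 387 and 393 in *Sirt6-/-*. It rose by log2 5.48 ± 0.196 in *Atm-/-* (adjusted p = 5.51e-12, edgeR) and 4.82 ± 0.227 in *Sirt6-/-* (adjusted p = 6.32e-11, edgeR), and the 3 genotypes were separate. *Wnt10a*, a ligand of tooth and skin appendage development, had 2, 6 and 0 reads in WT, 383, 366 and 519 in *Atm-/-* and 17, 24 and 35 in *Sirt6-/-*. Both mutants were above WT, by log2 7.11 ± 0.377 (adjusted p = 4.4e-10, edgeR) and 3.13 ± 0.686 (adjusted p = 0.000774, edgeR). Without WT replicate 2, which held most of the WT reads, these were 8.43 and 4.44. *Wnt6*, the neighbour of *Wnt10a* on chromosome 1, had 2, 4 and 2 reads in WT, 31, 47 and 49 in *Atm-/-* and 37, 81 and 78 in *Sirt6-/-*, and rose by log2 3.79 ± 0.515 (adjusted p = 1.29e-05, edgeR) and 4.50 ± 0.53 (adjusted p = 2.13e-06, edgeR). *Wnt5b*, a close relative of *Wnt5a*, had 66, 37 and 27 reads in WT, 222, 187 and 280 in *Sirt6-/-* and 40, 32 and 30 in *Atm-/-*. It rose in *Sirt6-/-* (log2 2.35 ± 0.271, adjusted p = 1.69e-06, edgeR) and was called neither way in *Atm-/-*, where samples overlapped WT (-0.48 ± 0.365, adjusted p = 0.255, edgeR).

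The remaining ligands tested had few reads. *Wnt2b* had 10 to 21 reads in WT, 20 in each *Atm-/-* sample and 31 to 61 in *Sirt6-/-*, where it rose by log2 1.66 ± 0.425 (adjusted p = 0.00259, edgeR), with 0.37 ± 0.436 in *Atm-/-* (adjusted p = 0.464, edgeR). *Wnt16*, a ligand of bone and joint tissue, had 2, 0 and 0 reads in WT, 3, 2 and 4 in *Atm-/-* and 13, 27 and 55 in *Sirt6-/-*. The 95 reads of *Sirt6-/-* against 2 of WT gave a ratio of 45.8 with a 95% counting interval of 12.3 to 384 (adjusted p = 0.000101, edgeR). The member was not tested in *Atm-/-* against WT. *Wnt16* passed the filter only through *Sirt6-/-*, so it had to be higher there and its call is no added support. Its fitted log2 value of 5.27 was 7.96 without WT replicate 1 and 4.63 without *Sirt6-/-* replicate 3. *Wnt7b*, a ligand of lung and vessel development, had 58, 50 and 60 reads in WT and 21, 20 and 21 in *Sirt6-/-* (log2 -1.49 ± 0.316, adjusted p = 0.00061, edgeR). In *Atm-/-* it had 73, 105 and 95 reads, all above WT in reads, with log2 0.56 ± 0.241 and an adjusted p of 0.0513 (edgeR). That value passed in 5 alternative settings, with log2 0.71 without *Atm-/-* replicate 1. Reads of *Wnt7b* and of the antisense gene *AU022754* that overlaps its exons cannot be told apart without knowing whether counting used strand, which is not given in the sources used here. The same holds for exons of *Fzd5*, *Fzd6*, *Rspo3*, *Sfrp2*, *Wnt11* and *Wnt5a*, which overlap annotated genes on the other strand that are not used here.

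As shares of the family's summed level, the mix of Wnt ligand mRNA differed between the genotypes. Levels per length were compared as RPKM (reads scaled to gene length and library size), and shares do not depend on the scaling between libraries. In WT, *Wnt4* made up 32.6% ± 0.86 (SD, n = 3) of the summed RPKM, *Wnt5a* 25.5% ± 1.11, *Wnt11* 23.1% ± 1.38 and *Wnt9a* 14.8% ± 2.13. In *Atm-/-*, *Wnt10b* led with 24.9% ± 2.26, before *Wnt5a* with 19.3% ± 1.78, *Wnt7a* with 17.9% ± 3.01 and *Wnt10a* with 17.5% ± 2.49, and the RPKM of the last 3 overlapped between neighbours in that order. In *Sirt6-/-*, *Wnt5a* alone held 74.8% ± 1.23, before *Wnt10b* with 11.0% ± 1.19 and *Wnt5b* with 6.48% ± 1.0. The summed RPKM of the 19 ligands was 65.8 ± 2.06 in WT, 37.2 ± 2.87 in *Atm-/-* and 50.9 ± 2.04 in *Sirt6-/-*.

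**Figure D3:**
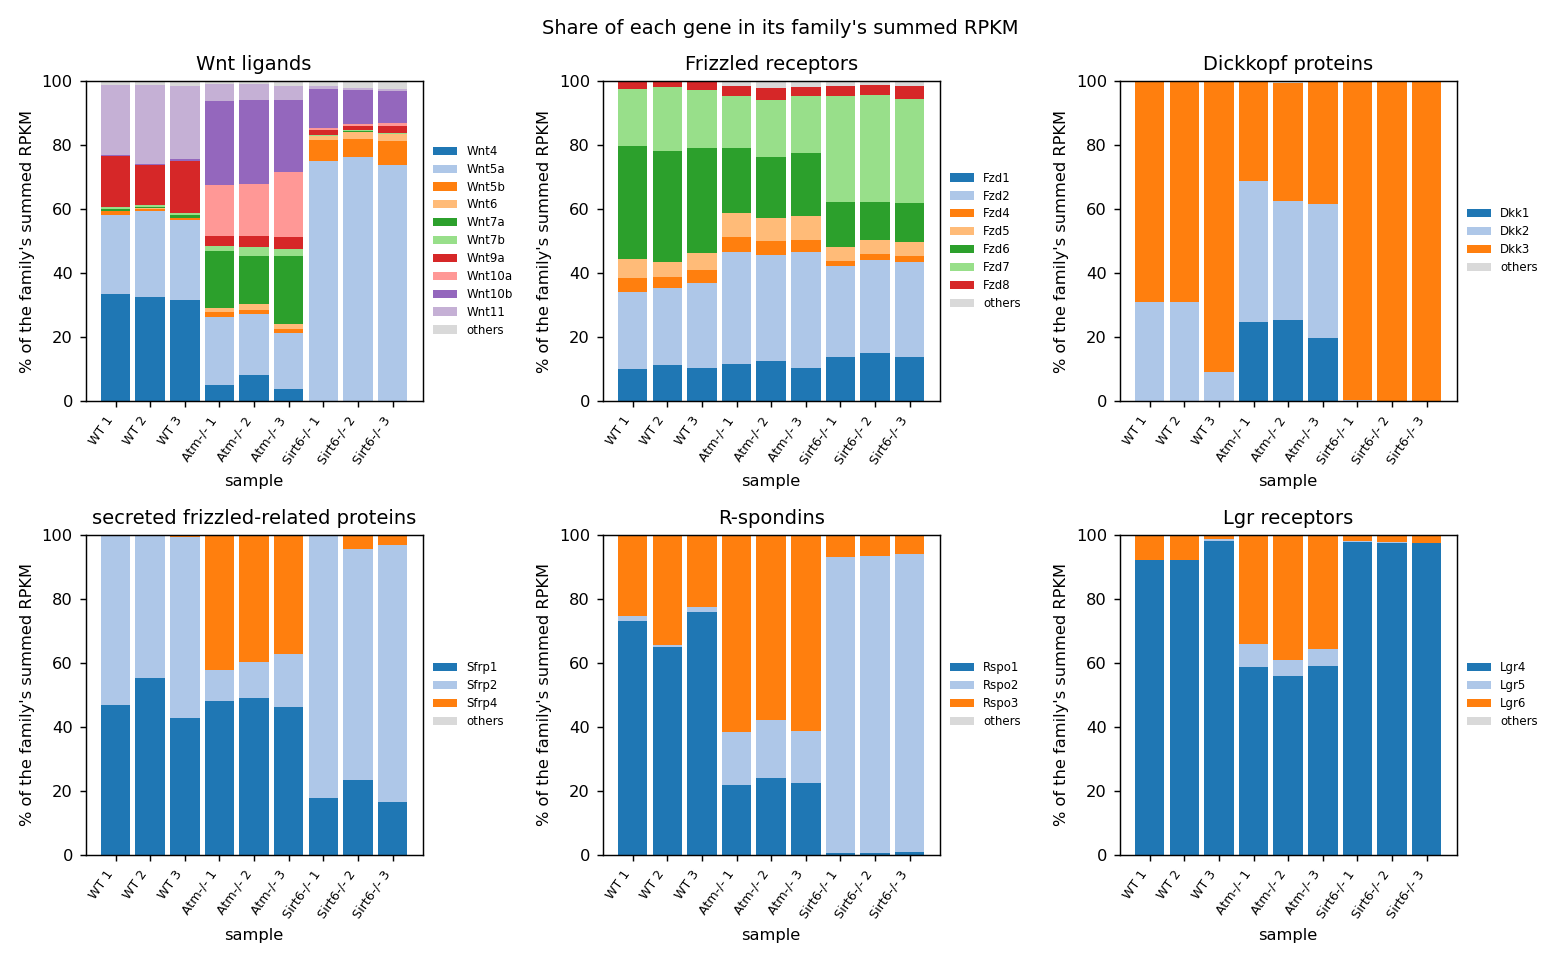
Share of each gene in the summed RPKM of its family (%) in each of the 9 samples, for the 6 families. Genes under 2% of the family in every sample are pooled as others. In *Sirt6-/-*, *Wnt5a* fills on average 74.8% of the Wnt bars, *Rspo2* 92.8% of the R-spondin bars and *Dkk3* 99.7% of the Dickkopf bars.

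The Wnt genes lie in part in neighbouring pairs, and the pairs differed. *Wnt6* and *Wnt10a*, in the same direction on chromosome 1 with 6696 bases between them, were both scarce in WT and higher in both mutants. *Wnt10b* (chr15:98770712-98778206) rose in both mutants, while *Wnt1*, which starts 11650 bases away on the other strand, had at most 8 reads. *Wnt9a* fell in both mutants, while *Wnt3a*, 16097 bases away on chromosome 11, had at most 2 reads in any sample. *Wnt3* overlaps *Wnt9b* by 1098 bases on the other strand. *Wnt3* was read in WT and *Wnt9b* in no sample.

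The Frizzled receptors tested had smaller absolute changes than the ligands by their medians, given here without a test. In *Atm-/-*, 9 of 10 were tested, 2 were higher and 5 lower (77.8% called, beside 68.4% of all genes), and the median of their absolute log2 fold changes was 0.52, beside 3.38 for the ligands. In *Sirt6-/-*, 8 were tested, 1 was higher and 5 lower (75.0%, beside 76.6%), with a median of 0.73 beside 3.61. The ligand medians include members such as *Wnt10a* and *Wnt3*, which passed the filter only through the genotypes where they were read. Such members had to differ, so these medians do not compare the families on equal terms. *Fzd6*, a receptor known for hair and tissue polarity and the most abundant in WT at 33.4 ± 0.993 RPKM (SD, n = 3), had 4736, 4569 and 4397 reads in WT, 1884, 1792 and 1912 in *Atm-/-* and 1148, 982 and 1054 in *Sirt6-/-*. It fell by 1.43 ± 0.0548 on the log2 scale in *Atm-/-* (adjusted p = 1.21e-11, edgeR) and by 2.16 ± 0.0627 in *Sirt6-/-* (adjusted p = 2.64e-13, edgeR). *Fzd3*, a receptor of axon guidance, moved the other way, with 26, 30 and 34 reads in WT, 391, 511 and 486 in *Atm-/-* and 307, 287 and 323 in *Sirt6-/-*. Its log2 rise was 3.80 ± 0.184 (adjusted p = 1.56e-10, edgeR) and 3.29 ± 0.188 (adjusted p = 6.06e-10, edgeR). By RPKM it still made up only 1.56% ± 0.21 of the family in *Atm-/-*. *Fzd9* had no read in WT, 12, 22 and 19 in *Atm-/-* and 16, 6 and 15 in *Sirt6-/-*. Set against 3 reads per WT sample it was at least 5.36-fold higher in *Atm-/-* (adjusted p = 0.000135, edgeR) and at least 3.96-fold higher in *Sirt6-/-*, where it was not tested with all samples. With 1 sample less it passed the filter in 4 of the 6 cases. Having no WT read, *Fzd9* could pass the filter only through the mutant in either comparison. Its calls as higher therefore followed from the filter and are no added support.

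*Fzd4*, the receptor of retinal vessel growth, had 519, 427 and 493 reads in WT, 396, 375 and 331 in *Atm-/-* and 128, 138 and 146 in *Sirt6-/-*. The order WT, *Atm-/-*, *Sirt6-/-* held without overlap, with log2 -0.52 ± 0.113 (adjusted p = 0.000858, edgeR) and -1.86 ± 0.129 (adjusted p = 5.89e-09, edgeR). *Fzd5*, a receptor linked to beta-catenin signalling in gut and eye, fell in *Sirt6-/-*, from 1006 to 1311 reads in WT to 602 to 641 (log2 -0.96 ± 0.0929, adjusted p = 2.39e-07, edgeR). In *Atm-/-* it had 1158 to 1214 reads and log2 -0.12 ± 0.0874 (adjusted p = 0.229, edgeR), but -0.22 and a pass without WT replicate 2. *Fzd7*, widely used in stem cells, fell in *Atm-/-*, from 2828 to 3109 reads to 1809 to 1989 (log2 -0.75 ± 0.0626, adjusted p = 7.18e-08, edgeR), with 3229 to 3298 reads in *Sirt6-/-* (log2 0.09 ± 0.0538, adjusted p = 0.131, edgeR). The latter passed without WT replicate 2, at 0.12. *Fzd7* was the receptor with the highest RPKM in *Sirt6-/-*, at 33.0% ± 0.54 of the family.

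*Fzd1* had 1446 to 1602 reads in WT, 1084 to 1285 in *Atm-/-* and 1233 to 1351 in *Sirt6-/-*, with log2 -0.50 ± 0.0732 (adjusted p = 2.6e-05, edgeR) and -0.30 ± 0.0701 (adjusted p = 0.0013, edgeR). *Fzd2* had 2821 to 3178 reads in WT and 2077 to 2280 in *Sirt6-/-* (log2 -0.50 ± 0.0599, adjusted p = 2.8e-06, edgeR). In *Atm-/-*, *Fzd2* had 2763 to 3086 reads, overlapping WT, and its log2 value of -0.15 ± 0.0647 (adjusted p = 0.0482, edgeR) was no longer called without WT replicate 3 (-0.10), without *Atm-/-* replicate 1 (-0.14) or without *Atm-/-* replicate 2 (-0.10). With library totals in place of TMM it was 0.01. *Fzd8* had 205 to 285 reads in WT, 218 to 293 in *Atm-/-* and 210 to 286 in *Sirt6-/-*, and passed in no comparison, the one tested member of which this was true. *Fzd10* had 2 reads in 1 WT sample and none elsewhere.

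Of the Dickkopf inhibitors almost nothing was read in WT, and the members read differed between the mutants. In *Atm-/-*, *Dkk1*, *Dkk2* and *Dkk3* were tested and all were higher, beside 34.7% of all genes tested. In *Sirt6-/-*, *Dkk3* was tested and was higher, beside 39.2%. With so few WT reads these genes passed the filter only through the mutant, so they had to be higher. *Dkk3*, a divergent member that does not block Lrp5 and Lrp6 as *Dkk1* does, had 2, 8 and 18 reads in WT, 223, 283 and 238 in *Atm-/-* and 3145, 3193 and 3222 in *Sirt6-/-*. The genotypes were far apart, with log2 4.58 ± 0.356 (adjusted p = 3.37e-08, edgeR) and 8.34 ± 0.185 (adjusted p = 1.26e-14, edgeR) against WT, or 5.46 and 9.22 without WT replicate 3. *Dkk1*, the best known of the inhibitors, had no read in WT, 117, 131 and 81 in *Atm-/-* and 2, 0 and 0 in *Sirt6-/-*. It was at least 33.2-fold higher in *Atm-/-* than 3 reads per WT sample (adjusted p = 1.25e-07, edgeR). *Dkk2* had 1, 4 and 2 reads in WT, 347, 314 and 285 in *Atm-/-* and 16, 4 and 4 in *Sirt6-/-*. The rise was log2 6.87 ± 0.306 in *Atm-/-* (adjusted p = 6.28e-11, edgeR), or 7.47 without WT replicate 2. The summed RPKM of the family was 0.102 ± 0.0758 (SD, n = 3) in WT, 6.34 ± 0.594 in *Atm-/-* and 29.1 ± 0.397 in *Sirt6-/-*. In *Atm-/-*, *Dkk2* held 41.0% ± 3.63 of this sum, *Dkk3* 35.5% ± 3.78 and *Dkk1* 23.3% ± 3.16, while in *Sirt6-/-* *Dkk3* held 99.7% ± 0.25. *Dkk4* had 2 reads in 1 *Atm-/-* sample and none elsewhere.

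Of the secreted frizzled-related genes, *Sfrp1* and *Sfrp2* fell in both mutants and *Sfrp4* rose in *Atm-/-*. *Sfrp1* had 1526, 1499 and 1543 reads in WT, 338, 306 and 294 in *Atm-/-* and 130, 153 and 128 in *Sirt6-/-*. The genotypes did not overlap, with log2 -2.42 ± 0.0807 (adjusted p = 2.57e-12, edgeR) and -3.53 ± 0.095 (adjusted p = 1.14e-13, edgeR). *Sfrp2* had 790, 546 and 933 reads in WT, 31, 32 and 48 in *Atm-/-* and 275, 216 and 283 in *Sirt6-/-*. Here *Atm-/-* was the lowest, with log2 -4.48 ± 0.224 (adjusted p = 2.27e-10, edgeR) against -1.60 ± 0.167 in *Sirt6-/-* (adjusted p = 5.45e-07, edgeR), and the direct comparison gave -2.86 ± 0.212 (adjusted p = 1.06e-10, edgeR). *Sfrp4*, known from bone, had 2, 6 and 10 reads in WT, 119, 99 and 95 in *Atm-/-* and 1, 12 and 10 in *Sirt6-/-*. It rose by log2 3.96 ± 0.404 in *Atm-/-* (adjusted p = 6.66e-07, edgeR) and was not tested in *Sirt6-/-* against WT. *Sfrp4* passed the filter only through *Atm-/-*, so it had to be higher there and its call is no added support. The summed RPKM was 21.8 ± 3.07 (SD, n = 3) in WT, 4.54 ± 0.302 in *Atm-/-* and 5.03 ± 0.342 in *Sirt6-/-*.

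The R-spondins switched member between genotypes. *Rspo1* held 71.3% ± 5.71 (SD, n = 3) of the family's summed RPKM in WT, *Rspo3* 60.0% ± 1.96 in *Atm-/-* and *Rspo2* 92.8% ± 0.24 in *Sirt6-/-*. *Rspo1*, known for ovary development, had 1211, 834 and 1303 reads in WT, 76, 91 and 72 in *Atm-/-* and 23, 30 and 46 in *Sirt6-/-*, with log2 -3.94 ± 0.17 (adjusted p = 4.31e-11, edgeR) and -5.13 ± 0.213 (adjusted p = 1.54e-11, edgeR). The 3 genotypes did not overlap. *Rspo2*, a limb and lung R-spondin, had 46, 14 and 50 reads in WT, 104, 124 and 95 in *Atm-/-* and 7551, 7744 and 8051 in *Sirt6-/-*. Its log2 rise was 1.41 ± 0.344 in *Atm-/-* (adjusted p = 0.00211, edgeR) and 7.67 ± 0.153 in *Sirt6-/-* (adjusted p = 3.99e-15, edgeR), where its mean RPKM was 71.2 ± 1.17. This was the highest RPKM of any member in any genotype. *Rspo3*, a vessel and limb R-spondin, had 545, 579 and 506 reads in WT, 277, 284 and 254 in *Atm-/-* and 402, 401 and 370 in *Sirt6-/-*. It fell by 1.14 ± 0.109 on the log2 scale in *Atm-/-* (adjusted p = 3.27e-07, edgeR) and by 0.53 ± 0.102 in *Sirt6-/-* (adjusted p = 0.000286, edgeR). *Rspo4* had at most 2 reads. The summed RPKM of the family was 25.3 ± 3.70 in WT, 5.75 ± 0.379 in *Atm-/-* and 76.8 ± 1.16 in *Sirt6-/-*.

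All 3 Lgr receptors, which bind R-spondins, were higher in *Atm-/-*, and *Lgr4* was called higher in *Sirt6-/-*, where *Lgr5* was not tested and *Lgr6* did not pass. Of all genes tested, 34.7% were called higher in *Atm-/-* and 39.2% in *Sirt6-/-*. *Lgr5* passed the filter only through *Atm-/-*, so it had to be higher there. *Lgr4*, the broadly used member, had 358, 378 and 319 reads in WT, 886, 963 and 914 in *Atm-/-* and 914, 812 and 868 in *Sirt6-/-*. The rise was log2 1.25 ± 0.0946 (adjusted p = 2.44e-08, edgeR) and 1.24 ± 0.0964 (adjusted p = 2.01e-08, edgeR), and the mutants overlapped. *Lgr5*, the marker of intestinal stem cells, had 0, 0 and 2 reads in WT, 99, 79 and 76 in *Atm-/-* and 2, 2 and 0 in *Sirt6-/-*. The 254 reads of *Atm-/-* against 2 of WT gave a ratio of 115 with a 95% counting interval of 31.6 to 959 (adjusted p = 1.96e-07, edgeR), and the fitted log2 value went from 6.62 to 9.35 without WT replicate 3, which held both reads. *Lgr6*, a marker of skin stem cells, had 22, 23 and 3 reads in WT, 369, 480 and 394 in *Atm-/-* and 14, 13 and 16 in *Sirt6-/-*. It rose by log2 4.55 ± 0.314 in *Atm-/-* (adjusted p = 8.93e-09, edgeR), while in *Sirt6-/-* it lay within the WT range at -0.21 ± 0.57 (adjusted p = 0.751, edgeR), 0.06 without WT replicate 1 and 0.14 without WT replicate 2. By summed RPKM, *Lgr4* held 94.1% ± 3.42 (SD, n = 3) of the family in WT and 97.6% ± 0.10 in *Sirt6-/-*, and in *Atm-/-* 58.0% ± 1.68 beside 36.3% ± 2.49 for *Lgr6*.

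The mutants were also compared with each other, which leaves WT out. Of 33 members tested, 19 were higher in *Atm-/-*, 10 higher in *Sirt6-/-* and 4 did not pass. The called share was 87.9%, beside 75.8% of all 13460 genes tested (38% higher, 37.8% lower). With at least 2-fold change it was 60.6%, beside 25.5%, and with at least 8-fold change 33.3%, beside 7.4%. In 28 members the samples did not overlap, beside 78.1% of all genes. *Dkk1*, *Dkk2*, *Lgr5* and *Sfrp4* passed the filter only through *Atm-/-*, and *Wnt16* only through *Sirt6-/-*. Their directions followed from the filter, so their calls below are no added support. The shares above include them and describe only the members that passed. *Dkk1* had 329 reads in *Atm-/-* against 2 in *Sirt6-/-*, a ratio of 157 with a 95% counting interval of 43.1 to 1301 (adjusted p = 5.7e-10, edgeR). Its fitted log2 value of 7.05 was 9.75 without *Sirt6-/-* replicate 1, which held both reads. *Lgr5* (log2 5.80 ± 0.528, adjusted p = 2.9e-09), *Lgr6* (4.77 ± 0.207, adjusted p = 1.36e-14) and *Dkk2* (5.21 ± 0.295, adjusted p = 1.25e-12, or 6.19 without *Sirt6-/-* replicate 1) were also higher in *Atm-/-* by edgeR. *Wnt4* was higher by log2 4.29 ± 0.288 (adjusted p = 2.12e-11, edgeR), *Wnt10a* by 3.99 ± 0.224 (adjusted p = 1.04e-12, edgeR) and *Sfrp4* by 3.68 ± 0.419 (adjusted p = 9.21e-08, edgeR). Higher in *Sirt6-/-* were *Rspo2*, with log2 -6.24 ± 0.0696 (adjusted p = 2.35e-24, edgeR), *Dkk3* with -3.75 ± 0.075 (adjusted p = 2.64e-20, edgeR), *Wnt16* with -3.41 ± 0.637 (adjusted p = 6.26e-05, edgeR, or -2.76 without *Sirt6-/-* replicate 3) and *Wnt5b* with -2.82 ± 0.218 (adjusted p = 2.21e-10, edgeR).

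The smaller differences between the mutants were these. *Wnt11* (2.27 ± 0.227), *Wnt7b* (2.06 ± 0.303), *Fzd4* (1.35 ± 0.137), *Rspo1* (1.20 ± 0.303), *Sfrp1* (1.12 ± 0.146), *Fzd5* (0.86 ± 0.0735), *Fzd6* (0.74 ± 0.0685), *Wnt10b* (0.67 ± 0.0947), *Fzd3* (0.53 ± 0.119) and *Fzd2* (0.36 ± 0.0567) were called higher in *Atm-/-* on the log2 scale. *Wnt2b* (-1.27 ± 0.371), *Fzd7* (-0.83 ± 0.0531) and *Rspo3* (-0.59 ± 0.115) were called lower. *Wnt9a* was called higher at 0.54 ± 0.231 (adjusted p = 0.041, edgeR), and the call was lost without *Sirt6-/-* replicate 1 (0.45), without *Sirt6-/-* replicate 2 (0.36) and without *Atm-/-* replicate 3 (0.38). *Fzd1* was called lower at -0.19 ± 0.0702 (adjusted p = 0.0209, edgeR), and the call was lost without *Sirt6-/-* replicate 2 (-0.14) and without *Atm-/-* replicate 3 (-0.14). *Wnt6* did not pass at -0.69 ± 0.329 (adjusted p = 0.0632, edgeR) but passed without *Sirt6-/-* replicate 1 (-0.97). *Fzd8* (0.01 ± 0.15), *Fzd9* (0.45 ± 0.492) and *Lgr4* (0.02 ± 0.0752) did not pass.

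Partners of these proteins inside and outside the cell were followed through lists of the pathway. Among the 8 co-receptors, 7 were tested against WT. In *Atm-/-*, 3 were higher and 3 lower, and in *Sirt6-/-* 3 were higher and 1 lower, with medians of log2 -0.03 and -0.02 beside 0.02 over all genes. For these and the list counts below, 34.7% of all genes tested were higher and 33.6% lower in *Atm-/-*. In *Sirt6-/-* these shares were 39.2% and 37.4%. *Ror2*, a receptor of *Wnt5a*, had 33, 32 and 33 reads in WT, 956, 848 and 916 in *Atm-/-* and 923, 798 and 902 in *Sirt6-/-*. Its log2 rise was 4.65 ± 0.136 (adjusted p = 5.92e-13, edgeR) and 4.68 ± 0.135 (adjusted p = 2.43e-13, edgeR). *Ror1*, its close relative, rose in *Atm-/-* (1.32 ± 0.196, adjusted p = 3.2e-05, edgeR), and in *Sirt6-/-* stood at -0.59 ± 0.287 (adjusted p = 0.0761, edgeR), which passed without WT replicate 2 (-0.69) and without *Sirt6-/-* replicate 2 (-0.91). *Ptk7*, a polarity co-receptor, fell by 1.85 ± 0.0501 on the log2 scale in *Atm-/-* and by 0.81 ± 0.0495 in *Sirt6-/-*. *Ryk*, a Wnt-binding pseudokinase, fell by 0.99 ± 0.0521 in *Atm-/-* and stood at -0.02 ± 0.0534 in *Sirt6-/-*. The co-receptor *Lrp6* fell by 0.37 ± 0.046 on the log2 scale in *Atm-/-* and rose by 0.22 ± 0.0446 in *Sirt6-/-*, while *Lrp5* passed in neither (-0.03 ± 0.054 and -0.09 ± 0.054).

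Of the 4 genes for making and releasing ligands, 2 were higher and 2 lower in each comparison with WT. *Wls*, which carries Wnt proteins to the surface, had 14641 to 15478 reads in WT, 5784 to 6006 in *Atm-/-* and 7056 to 7257 in *Sirt6-/-* (log2 -1.49 ± 0.0419 and -1.13 ± 0.0429). *Porcn*, the enzyme that adds the lipid, rose by 1.53 ± 0.182 in *Atm-/-* and 1.41 ± 0.222 in *Sirt6-/-*. *Trabd2b*, a protease that cuts Wnt proteins, fell by 3.19 ± 0.187 on the log2 scale in *Atm-/-* and by 4.77 ± 0.171 in *Sirt6-/-*. *Notum*, which removes the lipid, rose by 1.11 ± 0.296 in *Atm-/-* and 1.76 ± 0.279 in *Sirt6-/-*. Among 10 other modulators, 4 were tested in *Atm-/-* (1 higher, 2 lower) and 3 in *Sirt6-/-* (1 higher, 2 lower). *Frzb*, a relative of the Sfrp genes also known as a Wnt antagonist, had 74, 65 and 78 reads in WT, 26, 31 and 22 in *Atm-/-* and 2, 10 and 4 in *Sirt6-/-* (log2 -1.59 ± 0.291 and -3.78 ± 0.45, or -4.59 for the latter without *Sirt6-/-* replicate 2). *Tpbg*, a membrane protein that dampens beta-catenin signalling, rose by 0.98 ± 0.0793 in *Sirt6-/-*. *Wif1*, a secreted inhibitor, had no read in WT, 0 to 4 in *Atm-/-* and 7, 13 and 7 in *Sirt6-/-*, at least 2.89-fold above 3 reads per WT sample, and was not tested.

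Genes known to be switched on by beta-catenin, many of which feed back on the pathway, did not move as one. Of 16, 12 were tested in *Atm-/-*, where 8 were higher, 1 lower and 3 did not pass, with a median log2 fold change of 0.90 beside 0.02 over all genes. In *Sirt6-/-*, 11 were tested, 6 were higher, 3 lower and 2 did not pass, with a median of 1.47. Of all genes tested, 34.7% were called higher and 33.6% lower in *Atm-/-*, and 39.2% and 37.4% in *Sirt6-/-*. Targets hardly read in WT, such as *Tcf7* and *Lef1*, passed the filter only through the mutants. They had to be higher, so these counts and medians include rises fixed by the filter. *Axin2*, the usual readout of the pathway and a brake on it, had 158, 193 and 217 reads in WT, 165, 156 and 167 in *Atm-/-* and 56, 58 and 58 in *Sirt6-/-*. It fell by 1.78 ± 0.201 on the log2 scale in *Sirt6-/-* (adjusted p = 1.43e-06, edgeR), and in *Atm-/-* stood at -0.36 ± 0.164 (adjusted p = 0.068, edgeR), which passed without WT replicate 1 (-0.48). *Tcf7*, a partner of beta-catenin in the nucleus, had 9, 7 and 2 reads in WT, 428, 464 and 467 in *Atm-/-* and 146, 173 and 187 in *Sirt6-/-*. The rise was log2 6.07 ± 0.257 (adjusted p = 3.59e-11, edgeR) and 4.73 ± 0.348 (adjusted p = 1.12e-08, edgeR). Its relative *Lef1* had 0, 3 and 6 reads in WT, 124, 112 and 133 in *Atm-/-* and 40, 42 and 45 in *Sirt6-/-*, with log2 5.17 ± 0.468 (adjusted p = 1.81e-07, edgeR) and 3.71 ± 0.586 (adjusted p = 4.28e-05, edgeR). Without WT replicate 3 the *Lef1* values were 6.12 and 4.65, and without WT replicate 1 the *Sirt6-/-* value was 3.13.

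The ubiquitin ligases that remove Frizzled receptors, which R-spondins hold back, are *Rnf43* and *Znrf3*, and both were called higher in *Atm-/-* than in *Sirt6-/-*. *Rnf43* had 22, 16 and 6 reads in WT, 466, 447 and 419 in *Atm-/-* and 42, 66 and 32 in *Sirt6-/-*, and rose by log2 4.77 ± 0.247 (adjusted p = 3.36e-10, edgeR) and 1.61 ± 0.458 (adjusted p = 0.00521, edgeR). *Znrf3* had 820 to 958 reads in WT, 1029 to 1068 in *Atm-/-* and 435 to 518 in *Sirt6-/-*, where it fell by 0.98 ± 0.0922 on the log2 scale (adjusted p = 1.8e-07, edgeR), with 0.08 ± 0.0791 in *Atm-/-* (adjusted p = 0.395, edgeR). *Apcdd1*, a membrane inhibitor, fell by 0.59 ± 0.116 on the log2 scale in *Atm-/-* and by 1.51 ± 0.134 in *Sirt6-/-*. These genes also stand in the list of targets. *Ctnnb1*, which encodes beta-catenin, had 28301 to 30420 reads in WT, 23022 to 23580 in *Atm-/-* and 24031 to 25359 in *Sirt6-/-*, a fall of 0.45 ± 0.0428 and 0.29 ± 0.0443 on the log2 scale. Of the 20 genes of the intracellular beta-catenin pathway, all were tested. In *Atm-/-* 5 were higher and 9 lower, with *Bcl9l*, a co-activator, at -0.78 ± 0.0553, and in *Sirt6-/-* 9 were higher and 6 lower, with *Ctnnbip1*, an inhibitor of beta-catenin, at -1.04 ± 0.0887 (and -0.55 ± 0.0753 in *Atm-/-*). Of all genes 68.4% and 76.6% were called in these comparisons. Of 11 planar cell polarity genes, 2 were higher and 4 lower in *Atm-/-*, from *Celsr1* at 3.49 ± 0.183 to *Prickle1* at -2.82 ± 0.14 (-1.63 ± 0.14 in *Sirt6-/-*). In *Sirt6-/-* 2 were higher and 5 lower, from *Celsr2* at 4.90 ± 0.208 to *Daam2* at -3.12 ± 0.161. *Tpbg*, *Bcl9l*, *Celsr1*, *Celsr2* and *Daam2* did not pass in the other comparison with WT. All named values of these lists that are written as a rise or a fall had an adjusted p under 0.05 by edgeR.

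**Figure D4:**
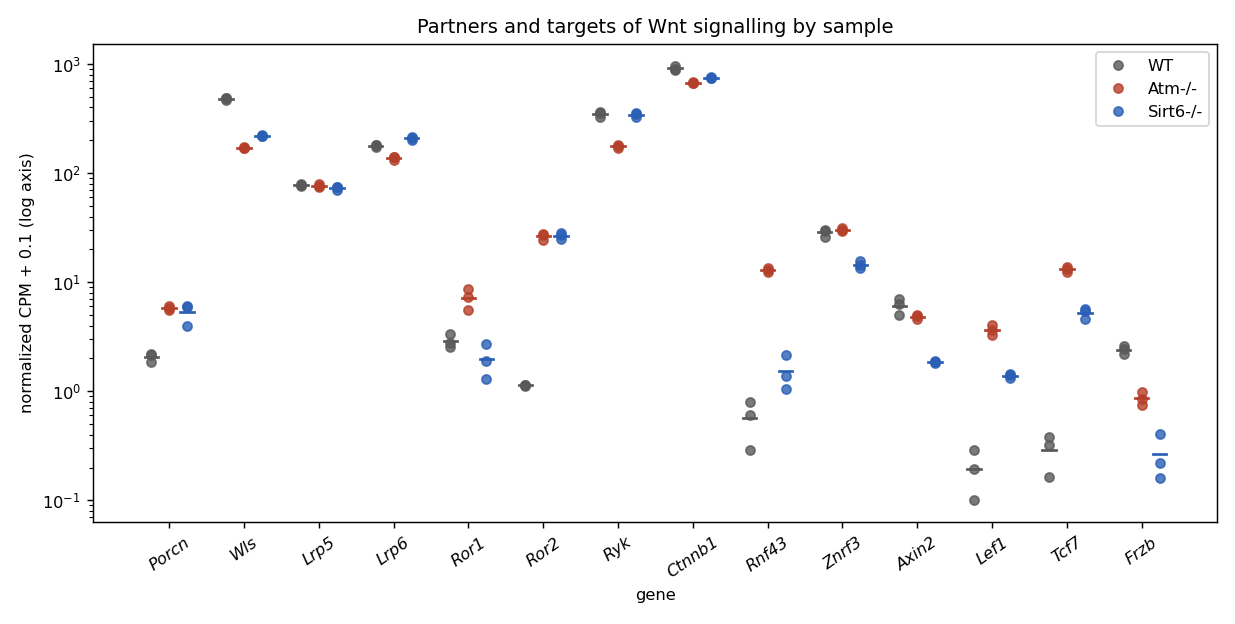
Normalized CPM plus 0.1 (log axis) of 14 partners and targets of Wnt signalling in each sample of WT (grey), *Atm-/-* (red) and *Sirt6-/-* (blue). Points are samples and short lines the means of 3. *Ror2*, *Lef1* and *Tcf7* lie above WT in both mutants, *Wls* and *Frzb* below, *Rnf43* is highest in *Atm-/-*, and *Axin2* and *Znrf3* lie lowest in *Sirt6-/-*.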

How the data were processed

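The authors deposited whole-number read counts, not normalized, for 24341 genes in each of the 9 samples, and RPKM values made from these counts and a listed gene length. The submitters' processing notes name the genome build mm10, and the aligner, the counting tool and the use of strand are not given in the sources used here. Counts of 1 to 10 were even in 61.9% to 64.8% of cases, beside 49.0% to 53.6% for counts of 100 to 200, and the counting intervals and the floor of 3 reads per sample treat reads as independent and cover counting error only. The samples held 32187040 to 33837949 reads, so 3 reads are 0.0851 to 0.0958 normalized CPM.

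Each pair of genotypes was fitted with edgeR 4.0.16 in R 4.3.3 on the 6 samples concerned (filterByExpr by genotype, TMM, glmQLFit with the default prior count, glmQLFTest). P-values were adjusted over all genes tested, with a threshold of 0.05, and standard errors were derived from the F statistic. Replicate numbers were checked and did not pair the samples. Family shares used RPKM only. Alternatives were DESeq2 1.42.0, other normalizations and filters, all samples in one fit, a replicate block and each sample left out.

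Every member is accounted for, and those tested in any comparison are named with values. Of the pathway lists, 15 genes were set by name, and beside them the largest rise and fall of each list with at least 1 CPM. The members and lists were chosen with earlier results of these data known. Positions and promoters come from RefSeq on GRCm38.p6, exon overlaps from GENCODE M21. Other experiments of the study were not used here, and 1 item is not reported here.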

Additional observations from a re-analysis of the deposited data

How the results depend on the processing

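Of the counts of members called, only the stricter filter (at least 10 counts in every sample) moved any by over 1.5 times: 5 members were then higher in *Atm-/-* against WT and 6 in *Sirt6-/-* against WT, because 22 and 20 members were tested. Leaving out single samples gave 14 to 15 higher and 13 to 15 lower in *Atm-/-*, 11 to 13 higher and 15 lower in *Sirt6-/-*, and 18 to 19 higher and 9 to 11 lower in *Atm-/-* against *Sirt6-/-*. The replicate numbers do not pair the samples (correlations of same-numbered deviations from -0.01 to 0.03), and with the number as a block the counts were 14 and 14, 11 and 15, and 19 and 10. Library totals in place of TMM moved the median log2 fold change of all genes in *Atm-/-* from 0.02 to 0.18 and the calls of all genes from 4611 higher and 4469 lower to 6156 and 3326, and in *Sirt6-/-* the median from 0.02 to 0.11. Values that changed sign were all small. With library totals these were *Fzd2* (0.0104), *Fzd5* (0.0415), *Fzd8* (0.0411) and *Lrp5* (0.13) in *Atm-/-* and *Ryk* (0.0690) in *Sirt6-/-*. With samples left out, *Lrp5* in *Atm-/-* ran from -0.0528 to 0.00087 (without *Atm-/-* replicate 1), *Ryk* in *Sirt6-/-* from -0.0876 to 0.0103 (above 0 without *Sirt6-/-* replicate 2 or WT replicate 3), and *Lgr6* in *Sirt6-/-* from -0.71 to 0.14 (above 0 without WT replicate 1 or 2). Between the mutants, *Fzd8* was -0.00032 with all 9 samples in one fit, and with samples left out ran from -0.11 to 0.15 (below 0 without *Sirt6-/-* replicate 1 or 2 or *Atm-/-* replicate 2), and *Lgr4* from -0.0130 (without *Sirt6-/-* replicate 2) to 0.0669. The cause of these changes was not tested. Depth limits the 10 members that were not tested and the fold changes of members with fewer than 10 reads in a genotype.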

Other observations

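Outside the members, *Sost* and *Sp5* of the pathway lists were tested in *Atm-/-* against WT and had no read in any WT or *Sirt6-/-* sample, and they were picked after their values were seen. Both passed the filter only through *Atm-/-* and had to be higher there, so their test is no support and is not given. *Sost*, a secreted inhibitor of Lrp5 and Lrp6 made by bone cells, had 33, 66 and 23 reads in *Atm-/-*, at least 12.3-fold above 3 reads per WT sample. *Sp5*, a transcription factor and target of beta-catenin, had 15, 14 and 20 reads in *Atm-/-*, at least 4.95-fold above the same floor. *Kremen1*, a receptor for Dickkopf proteins also picked after its values were seen, had 489, 447 and 539 reads in WT, 649, 606 and 662 in *Atm-/-* and 1441, 1605 and 1564 in *Sirt6-/-*, where it was higher by log2 1.59 ± 0.0842 (adjusted p = 2.51e-10, edgeR). It was called higher in *Atm-/-* as well.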
